A study of Drosophila melanogaster with 6 samples.

Results

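Genes of synaptic release and neuronal excitability were followed in whole Drosophila melanogaster larvae that carried a dTip60 transgene. The 45 listed genes were chosen by name for their roles in the synaptic vesicle cycle, the active zone, voltage-gated and related ion channels, transmitter supply, and neuronal identity and adhesion. Earlier results of these data were known when the list was made. Of these, 39 had a probe set annotated with a single gene symbol equal to the listed name, out of 11982 genes with such a probe set. The other 6 (Syt1, Syt4, Syx1A, comt, Nsf2 and Eaat1) were not analysed here.

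The study asked which genes respond when Tip60, a histone acetyltransferase, is made with a defective catalytic domain (dTip60E431Q) or in excess as wild type (dTip60WT). There were 6 Affymetrix Drosophila Genome 2.0 arrays, with 2 for each of 3 groups: dTip60E431Q line B, dTip60WT line B and the w1118 control, in each case the progeny of a cross to 337-GAL4. All 3 groups, the control included, thus carried the ubiquitous GAL4 driver, and each transgene was represented by 1 insertion line kept beside the endogenous gene. Each array held RNA of its own pool of 35 larvae, raised at 25°C for 3 days, and dTip60E431Q larvae of this line die late in the second instar, soon after the age sampled.

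At a synapse, an action potential opens calcium channels beside docked vesicles, and SNARE proteins of the vesicle and the plasma membrane then draw the membranes together. Active zone proteins place and prime the vesicles, sodium and potassium channels shape the action potential, and endocytic proteins recover vesicle membrane. Enzymes and vesicular transporters fill the vesicles with acetylcholine, glutamate or GABA, and in the larva glutamate is the transmitter of the neuromuscular junction while acetylcholine is the main excitatory transmitter of the brain and nerve cord.

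Values are intensities, the linear model-based indexes of the deposited table, and differences are on the log2 scale with the standard error of the fit. A gene is said to have passed where its limma p, adjusted by Benjamini-Hochberg over 18769 probe sets, was below 0.05. Tip60 itself had intensities of 5172 and 5464 in dTip60E431Q larvae and 3045 and 2755 in dTip60WT larvae, against 30.8 and 29.2 in the control, so its order followed the group labels. Arrays of a genotype correlated at r = 0.961 to 0.967 over all probe sets, and no array stood apart from its partner by this measure. The salivary glue genes split the pools of dTip60WT, with summed intensities of 24.3 and 1157, and of the control, with 890 and 31.9. In dTip60E431Q larvae both pools were low, at 31.6 and 22.0. The median intensity of an array was 51.5 and 51.9 for dTip60E431Q and 43.8 and 45.2 for dTip60WT, against 44.4 and 43.6 for the control.

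In dTip60E431Q larvae, 11 of the 39 genes were higher than in the control and 0 were lower (limma, adjusted p below 0.05). The 11 were Snap25, cpx, Rab3, unc-13, cac, sei, tipE, ChAT, Gad1, nrv3 and Appl, at least 1 from each role. They make up 28.2% of the measured genes, where over all 11982 genes 14.2% were higher and 14.2% lower. Since earlier results were known when the list was made, such shares describe this list only. The fitted difference was above 0 for 27 genes and below 0 for 12, with a median of 0.20 against 0.03 over all genes. Whole larvae were measured, so a larger share of neurons and more RNA per neuron cannot be told apart.

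Scaling of the arrays bore on these counts. When each array was divided by its median, the median difference over all genes moved to -0.20 and that of the 39 genes to -0.03, since this scaling shifts the difference of every gene by the same amount. Under this scaling 8 of the 39 genes were higher and 3 were lower, where 1547 of all 18769 probe sets were higher and 3172 lower. The 3 that then passed as lower were dlg1, eag and Synj, and the calls of sei, ChAT and nrv3 were lost. The shift was too small to turn the sign of any of the 11 differences. Leaving out 1 array also decided the number of calls. No gene passed without control pool 1, without dTip60E431Q pool 1 or without dTip60E431Q pool 2, only sei passed without control pool 2, and 8 passed without dTip60WT pool 1 or without dTip60WT pool 2. The differences of the 11 genes themselves stayed between 0.79 and 1.53 whichever array was left out.

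**Figure D1:**
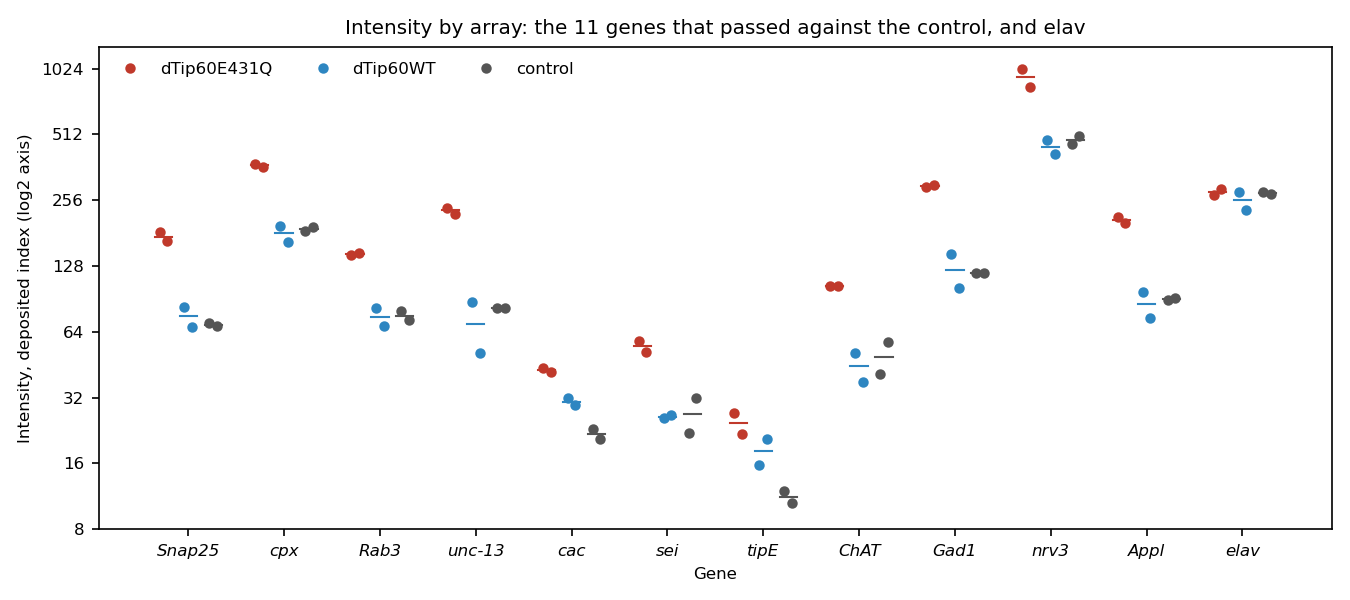
Intensity (log2 axis) on each array for the 11 genes that passed against the control and for elav, with dTip60E431Q in red, dTip60WT in blue and the control in grey; points are arrays and bars are the means of 2 arrays. For each of the 11 genes both dTip60E431Q arrays lie above all other arrays, whereas the elav values of the 3 genotypes overlap.

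Without regard to the fit, both dTip60E431Q arrays lay above both control arrays for 19 of the 39 genes (48.7%, against 36.8% of all genes). They lay below both control arrays for 5 genes (12.8%, against 33.4% of all genes). A difference of at least 2-fold together with the test was met by 7 genes, namely Snap25, unc-13, sei, tipE, ChAT, Gad1 and Appl, where 9.93% of all genes met it in this direction.

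Among the genes of the vesicle cycle, 3 of 13 rose (23.1%, against 14.2% of all genes) and the median difference was 0.16. The plasma membrane SNARE gene Snap25 had intensities of 183 and 166 in dTip60E431Q larvae and 83.4 and 67.4 in dTip60WT larvae, against 70.5 and 67.7 in the control. Both dTip60E431Q pools were thus more than 1.5-fold above every other pool, and the difference from the control was 1.33 ± 0.16 (limma, adjusted p = 0.0107). Its close relative Snap24, a SNARE with a broader tissue distribution, had 136 and 149 in dTip60E431Q larvae and 154 and 123 in dTip60WT larvae, against 139 and 137 in the control. Here the 3 genotypes overlapped, with a difference of 0.05 ± 0.16 and a 95% interval from -0.38 to 0.48. The Snap25 interval of 0.91 to 1.76 lies wholly above it, although the difference between the genes was not itself tested.

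The other genes of this role that passed act on SNARE assembly and vesicle docking. Complexin (cpx), which binds the assembled SNARE bundle and clamps spontaneous fusion, had 375 and 365 in dTip60E431Q larvae and 196 and 165 in dTip60WT larvae, against 184 and 193 in the control. The dTip60E431Q pools stood apart and the difference was 0.97 ± 0.14 (limma, adjusted p = 0.0158). A second cpx probe set, with a mean level close to that of the first, had 218 and 272 in dTip60E431Q larvae and 199 and 191 in dTip60WT larvae, against 210.5 and 186 in the control. It did not pass, with a difference of 0.30 ± 0.17 (limma, adjusted p = 0.271), so the cpx result holds for 1 of its 2 probe sets. The vesicle GTPase gene Rab3 had 144 and 147 in dTip60E431Q larvae and 82.0 and 68.0 in dTip60WT larvae, against 79.4 and 72.2 in the control. No dTip60E431Q array overlapped another genotype, and the difference was 0.94 ± 0.15 (limma, adjusted p = 0.0190).

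Several vesicle genes lay higher without passing. Syt7, a calcium sensor of the synaptotagmin family, had 73.1 and 70.1 in dTip60E431Q larvae and 49.0 and 38.2 in dTip60WT larvae, against 43.3 and 48.0 in the control. Both dTip60E431Q arrays of Syt7 lay above all others, and its difference from the control was 0.65 ± 0.17 (limma, adjusted p = 0.0610). Csp, the vesicle chaperone cysteine string protein, had 953 and 1006 in dTip60E431Q larvae and 743 and 695 in dTip60WT larvae, against 710 and 735 in the control. Its difference was 0.44 ± 0.12 (limma, adjusted p = 0.0640). Synapsin (Syn), which tethers vesicles of the reserve pool, had a difference of 0.81 ± 0.29 (limma, adjusted p = 0.124).

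None of the remaining vesicle genes passed. Rop, the Munc18 homologue that binds syntaxin, differed by -0.14, and the endocytic genes shi (dynamin), lap (a clathrin adaptor of the AP180 family), EndoA (endophilin) and Synj (synaptojanin) differed by 0.08, 0.16, -0.19 and -0.29. Of these 5, Synj was the one whose dTip60E431Q arrays, at 109 and 114, lay apart from the control arrays, at 141 and 132. The vesicle SNARE gene nSyb had 1.00 and 3.77 in dTip60E431Q larvae and 8.24 and 2.97 in dTip60WT larvae, against 8.82 and 3.59 in the control. That probe set lies at the 4.57th percentile of mean level, and its interval of -4.01 to 0.94 leaves the direction of nSyb undetermined on these arrays.

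At the active zone, unc-13 alone of 3 genes passed (33.3%, against 14.2% of all genes higher). This gene encodes the priming factor that readies docked vesicles for fusion, and it had 237 and 223 in dTip60E431Q larvae and 88.1 and 51.0 in dTip60WT larvae, against 82.3 and 82.1 in the control. Its difference of 1.48 ± 0.29 was the largest among the genes that passed (limma, adjusted p = 0.0296). The scaffold gene brp had 81.2 and 62.1 in dTip60E431Q larvae and 90.3 and 78.4 in dTip60WT larvae, against 82.5 and 74.9 in the control. The genotypes overlapped for brp, with a difference of -0.15 ± 0.19 and an interval of -0.65 to 0.36. Rim, which links vesicles to calcium channels, had 188 and 130 in dTip60E431Q larvae and 137 and 130 in dTip60WT larvae, against 145 and 127 in the control, and its difference was 0.20 ± 0.22.

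**Figure D2:**
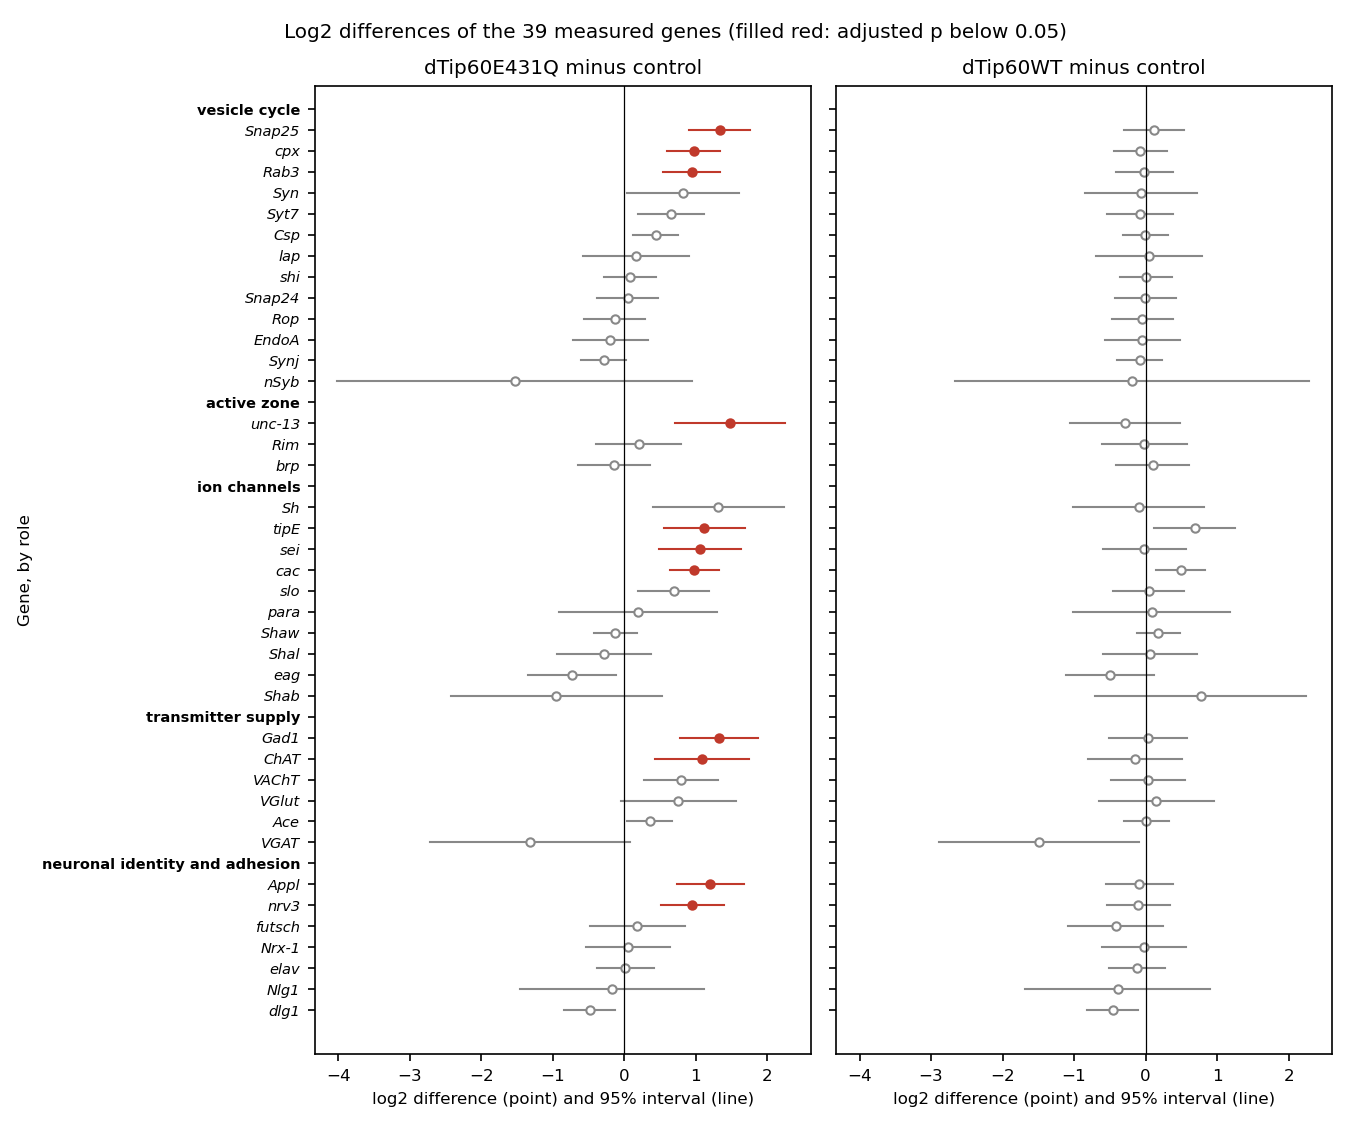
Log2 differences (points) with 95% intervals (lines) of the 39 genes by role, for dTip60E431Q minus control on the left and dTip60WT minus control on the right; filled red points have an adjusted p below 0.05. The 11 red points on the left lie between 0.94 and 1.48, and no point on the right is red.

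Ion channel genes moved unevenly: 3 of 10 rose (30%, against 14.2% of all genes), 4 had a negative difference that did not pass, and the median was 0.44. The calcium channel gene cac, which encodes the pore subunit that triggers release, had 43.8 and 41.9 in dTip60E431Q larvae and 31.7 and 29.5 in dTip60WT larvae, against 23.0 and 20.6 in the control. The genotypes formed 3 separate steps, and the difference from the control was 0.98 ± 0.13 (limma, adjusted p = 0.0130). A second cac probe set was too dim to read, at the 2.70th percentile. The gene tipE, which encodes an auxiliary subunit of the sodium channel para, had 27.2 and 21.8 in dTip60E431Q larvae and 15.8 and 20.7 in dTip60WT larvae, against 11.97 and 10.5 in the control. Its difference was 1.12 ± 0.21 (limma, adjusted p = 0.0277) at a dim 29.8th percentile of level, and with trend and robust options in the moderation its adjusted p was 0.0504. The channel gene para itself differed by 0.19 ± 0.41, an interval of -0.91 to 1.29.

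Of the potassium channel genes only sei passed. The ERG channel gene sei, whose loss causes seizures at high temperature, had 58.3 and 51.8 in dTip60E431Q larvae and 25.7 and 26.7 in dTip60WT larvae, against 22.1 and 31.8 in the control. Both dTip60E431Q arrays were above the rest, with a difference of 1.05 ± 0.22 (limma, adjusted p = 0.0336). The sei call was lost under 11 of 19 alternative settings, with an adjusted p of 0.0760 in a fit of the 4 arrays compared and 0.0684 after quantile normalization. Sh, the Shaker channel of fast A-type currents, had 82.6 and 76.2 in dTip60E431Q larvae and 34.7 and 25.5 in dTip60WT larvae, against 23.8 and 42.7 in the control. The 2 control arrays of Sh were themselves far apart, and its difference of 1.32 ± 0.34 missed the threshold (limma, adjusted p = 0.0586). The calcium-activated channel gene slo had 159 and 207 in dTip60E431Q larvae and 112 and 119 in dTip60WT larvae, against 104.1 and 122 in the control, a difference of 0.69 ± 0.19 (limma, adjusted p = 0.0653).

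The other potassium channel genes had differences below 0, none of which passed. The values of eag were 13.9 and 9.27 in dTip60E431Q larvae and 13.1 and 13.6 in dTip60WT larvae, against 17.95 and 19.9 in the control, with a difference of -0.73 ± 0.23 (limma, adjusted p = 0.0916). Shab, the delayed rectifier, had 7.32 and 2.90 in dTip60E431Q larvae and 13.2 and 17.55 in dTip60WT larvae, against 6.75 and 11.7 in the control, and lies at the 14.99th percentile of level. Shal, the channel of somatic A-type currents, and Shaw, a slowly inactivating channel, differed by -0.28 and -0.12.

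For transmitter supply, both synthesis enzymes rose (2 of 6 genes, 33.3%, against 14.2% of all genes) and the median difference of the 6 genes was 0.77. Gad1, the glutamate decarboxylase that makes GABA, had 294 and 301 in dTip60E431Q larvae and 145 and 102 in dTip60WT larvae, against 119 and 119 in the control. The difference was 1.32 ± 0.20 (limma, adjusted p = 0.0176), and no arrays of Gad1 overlapped between dTip60E431Q and the others. ChAT, the enzyme that makes acetylcholine, had 103.5 and 103.6 in dTip60E431Q larvae and 51.1 and 37.7 in dTip60WT larvae, against 41.05 and 57.6 in the control. Its difference was 1.09 ± 0.25 (limma, adjusted p = 0.0422), a call lost under 13 of 19 alternative settings. Among them, the adjusted p of ChAT was 0.0629 in a fit of the 4 arrays compared, 0.0702 after quantile normalization and 0.0504 with the lowest 20% of values raised to a common floor.

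None of the 3 vesicular transporter genes passed. VAChT, which loads acetylcholine, had 29.4 and 35.1 in dTip60E431Q larvae and 19.2 and 18.9 in dTip60WT larvae, against 16.15 and 21.3 in the control. Both dTip60E431Q arrays of VAChT lay above all others, and its difference from the control of 0.79 ± 0.19 came close to the threshold (limma, adjusted p = 0.0509). The glutamate transporter VGlut had a difference of 0.75 ± 0.30 (limma, adjusted p = 0.152). The GABA transporter VGAT had 10.6 and 5.54 in dTip60E431Q larvae and 9.67 and 4.81 in dTip60WT larvae, against 15.2 and 24.1 in the control, so that both transgenic groups lay below the control at the 18.1th percentile of level. Its difference was -1.32 ± 0.53 (limma, adjusted p = 0.151), opposite in sign to that of Gad1. Ace, the acetylcholinesterase that ends cholinergic signals, had 105 and 103.6 in dTip60E431Q larvae and 83.9 and 81.0 in dTip60WT larvae, against 84.9 and 78.8 in the control, a difference of 0.35 ± 0.12 (limma, adjusted p = 0.101).

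Of the 7 genes of neuronal identity and adhesion, 2 rose (28.6%, against 14.2% of all genes) and the median difference was 0.05. The pan-neuronal RNA-binding protein gene elav, the standard marker of neurons, had 269 and 289 in dTip60E431Q larvae and 280 and 232 in dTip60WT larvae, against 278 and 274 in the control. Its difference was 0.01 ± 0.15, with a 95% interval of -0.38 to 0.41. The difference between elav and the genes that passed was not tested. Appl, the fly homologue of the amyloid precursor protein, had 215 and 201 in dTip60E431Q larvae and 97.6 and 74.1 in dTip60WT larvae, against 89.2 and 91.8 in the control. The Appl difference was 1.20 ± 0.18 (limma, adjusted p = 0.0162). The gene nrv3, which encodes a neuronal beta subunit of the sodium pump, had 1024 and 847 in dTip60E431Q larvae and 484 and 417 in dTip60WT larvae, against 463 and 503 in the control, a difference of 0.95 ± 0.17 (limma, adjusted p = 0.0231). The nrv3 call was lost under 12 of 19 alternative settings, with an adjusted p of 0.0511 in a fit of the 4 arrays compared.

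None of the other adhesion and cytoskeletal genes passed. The differences of futsch (the MAP1B homologue of axons), Nrx-1 (neurexin) and Nlg1 (a postsynaptic neuroligin) were 0.18, 0.05 and -0.17. Nlg1 was dim, with 8.82 and 17.2 in dTip60E431Q larvae and 14.6 and 7.70 in dTip60WT larvae, against 16.1 and 12.01 in the control. The synaptic and epithelial scaffold gene dlg1 had 397.5 and 399.6 in dTip60E431Q larvae and 419.6 and 389.7 in dTip60WT larvae, against 520.4 and 596.2 in the control. Its difference of -0.48 ± 0.13 did not pass (limma, adjusted p = 0.0670), but passed as lower under 6 of the alternative settings.

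**Figure D3:**
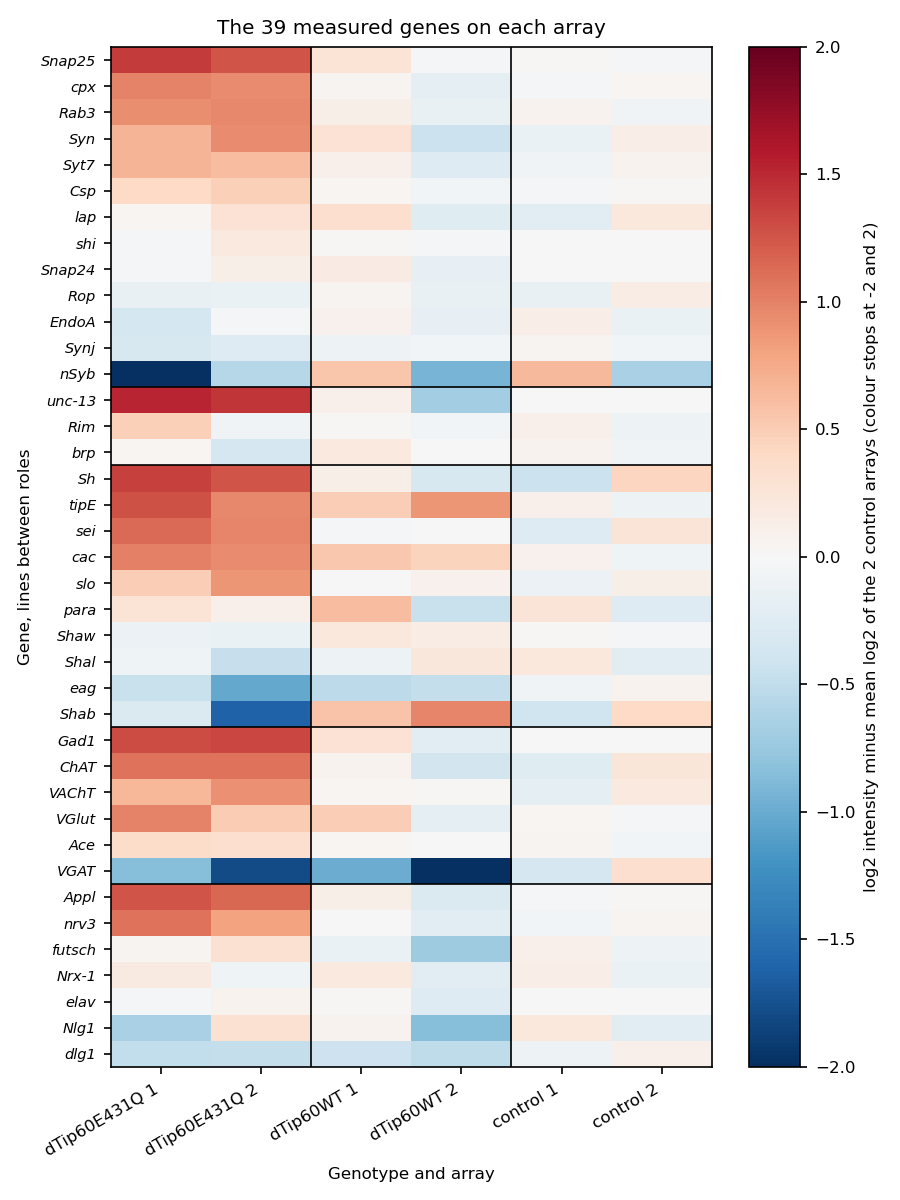
Log2 intensity of the 39 genes on each of the 6 arrays, minus the mean log2 of the 2 control arrays (red above, blue below, colours stopped at -2 and 2), grouped by role with lines between roles and genotypes. Red blocks in both dTip60E431Q columns mark genes such as Snap25 (1.33), unc-13 (1.48) and Gad1 (1.32), while elav (0.01) and Snap24 (0.05) stay near white.

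With dTip60WT, 0 of the 39 genes passed against the control in either direction, where 0.00835% of all genes were higher and 0.00% lower (limma, adjusted p below 0.05). The methods' t-test with a fold of at least 2 called 0 as well. An unadjusted limma p under 0.05 was found for 4 genes (10.3%), where 4.35% of all genes had one. These 4 were cac at 0.49 and tipE at 0.69, both above the control, and VGAT at -1.49 and dlg1 at -0.46, both below it. The median over the 39 genes was -0.02 and that over all genes -0.0042. Both dTip60WT arrays lay above both control arrays for 4 genes and below them for 5 (10.3% and 12.8%, against 15.7% and 16.8% of all genes). The comparisons of the transgenes with the control share the control arrays, so the same control values stand behind both.

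The mutant was also compared directly with the wild-type transgene, a comparison in which both groups carried raised Tip60 transcript. Here 11 of the 39 genes were higher and 0 lower in dTip60E431Q larvae (28.2%, against 14.7% higher and 14.2% lower over all genes), with a median of 0.34 against 0.02 over all genes. Both dTip60E431Q arrays lay above both dTip60WT arrays for 20 genes (51.3%, against 35.7% of all genes) and below them for 3 (7.69%, against 33.6%). A difference of at least 2-fold that also passed was met by 9 genes, where 10.5% of all genes met it in this direction. The 11 genes were Syt7, Snap25, cpx, Rab3, unc-13, Sh, sei, ChAT, Gad1, nrv3 and Appl. The differences were 1.78 ± 0.29 for unc-13 and 1.41 ± 0.34 for Sh (limma, adjusted p = 0.0189 and 0.0488). Syt7 differed by 0.73 ± 0.17 (limma, adjusted p = 0.0464). In this comparison cac differed by 0.49 ± 0.13 and tipE by 0.43 ± 0.21, and neither passed (limma, adjusted p = 0.0613 and 0.220), their dTip60WT arrays lying between those of the other groups. With each array divided by its median, 7 genes were higher and 1, Shaw, was lower, and Sh, Syt7, sei and ChAT no longer passed. Tip60 transcript was itself 0.88 ± 0.13 higher in dTip60E431Q than in dTip60WT larvae (limma, adjusted p = 0.0142), so the transgene level differs along with the catalytic change, and the part of either cannot be told apart.

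Further probe sets, 24 in all, were annotated to 12 of the measured genes, and in dTip60E431Q larvae 3 of the 24 were higher and 0 lower than in the control (limma, adjusted p below 0.05). The 3 make up 12.5%, near the 11.9% of all 18769 probe sets that were higher, and 11.7% of all probe sets were lower. Against dTip60WT, 5 of the 24 were higher and 0 lower (20.8%, where 12.2% of all probe sets were higher and 11.7% lower). The 3 called against the control belonged to genes whose brightest probe set had not passed in that comparison. For shi, a second probe set had 157 and 166 in dTip60E431Q larvae and 88.5 and 85.4 in dTip60WT larvae, against 93.5 and 116 in the control, a difference of 0.63 ± 0.15 (limma, adjusted p = 0.0490). For Rim, a dimmer probe set had 40.2 and 45.6 in dTip60E431Q larvae and 17.7 and 15.7 in dTip60WT larvae, against 19.1 and 26.95 in the control, a difference of 0.92 ± 0.22 (limma, adjusted p = 0.0468). The brighter probe sets of these genes had differences of 0.08 for shi and 0.20 for Rim, and neither passed.

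Shaker, a gene with many alternative transcripts, had 7 probe sets. One of the dimmer ones had 53.1 and 53.3 in dTip60E431Q larvae and 15.1 and 9.14 in dTip60WT larvae, against 15.8 and 20.7 in the control, and for this Sh probe set the difference was 1.56 ± 0.30 (limma, adjusted p = 0.0284). No dTip60E431Q array overlapped another genotype here. The 3 dimmest Sh probe sets had differences of -0.89, -0.25 and -1.94 with wide intervals, and none passed. The 4 probe sets of brp all had differences below 0 and none passed, and the 3 other probe sets of dlg1 had differences of 1.00, 0.63 and -0.01, none of which passed.

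Genes with related roles that are not on the list passed against the control in smaller shares than all genes did. Of 83 named for the same roles, 75 were measured, and in dTip60E431Q larvae 8 were higher and 6 lower than in the control (10.7% and 8%, against 14.2% in each direction over all genes), with a median of 0.10 against 0.03 over all genes. With dTip60WT 0 passed, and 4 (5.33%) had an unadjusted limma p under 0.05, where 4.35% of all genes had one. Among 20 related vesicle genes, unc-104, the kinesin that carries synaptic vesicle precursors along axons, rose by 0.91 ± 0.14 (limma, adjusted p = 0.0176). The clathrin heavy and light chain genes Chc and Clc fell by 0.73 and 0.68 (limma, adjusted p = 0.0190 and 0.0214). Chc had 874 and 923 in dTip60E431Q larvae and 1333 and 1406 in dTip60WT larvae, against 1468 and 1514 in the control. Clathrin acts in all cells and not in synapses alone.

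The other related groups held the largest single changes. DAT, the dopamine transporter that clears dopamine from the synapse, had 66.2 and 109.7 in dTip60E431Q larvae and 15.2 and 7.76 in dTip60WT larvae, against 8.04 and 11.1 in the control, a difference of 3.17 ± 0.45 (limma, adjusted p = 0.0151). The choline transporter ChT and the GABA transporter Gat rose by 0.99 and 0.94. Thus 3 of 8 related transmitter genes rose and 0 fell (37.5% and 0%, against 14.2% in each direction over all genes). In contrast, Ca-beta, the auxiliary subunit of voltage-gated calcium channels, had 27.9 and 28.0 in dTip60E431Q larvae and 62.5 and 63.2 in dTip60WT larvae, against 65.3 and 59.0 in the control. Ca-beta thus differed by -1.15 ± 0.12 (limma, adjusted p = 0.00875) where the pore subunit cac rose. Ih and Irk1, a hyperpolarization-activated and an inward rectifier channel, rose by 0.88 and 0.76.

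At the active zone, Srpk79D, a kinase that keeps Bruchpilot from assembling early in axons, had 77.5 and 94.9 in dTip60E431Q larvae and 244 and 212 in dTip60WT larvae, against 250.0 and 225 in the control. Srpk79D fell by 1.47 ± 0.17 (limma, adjusted p = 0.0103), while brp itself did not pass. RhoGAP100F (syd-1) and Fife, other active zone genes, had differences of 0.93 and 0.75 and did not pass (limma, adjusted p = 0.0514 and 0.0578). Among related identity genes, the neuronal transcription factor gene onecut and the ankyrin gene Ank2 rose by 1.21 and 1.26. The sodium pump subunit gene nrv1, which is expressed broadly, fell by 0.57 (limma, adjusted p = 0.0314), opposite in sign to nrv3.

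**Figure D4:**
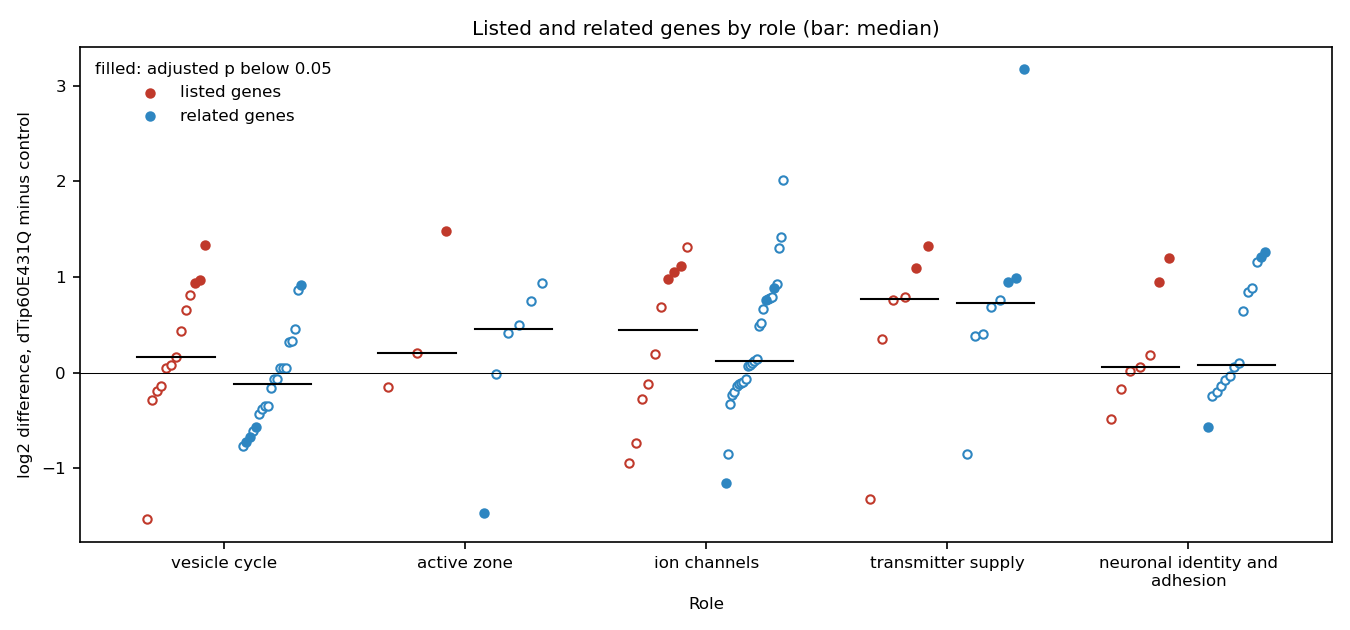
Log2 difference of dTip60E431Q minus control for the listed genes (red) and related genes (blue) by role; filled points have an adjusted p below 0.05 and bars are medians. Listed genes passed only upward, whereas among related genes Ca-beta (-1.15), Srpk79D (-1.47) and the clathrin genes Chc (-0.73) and Clc (-0.68) passed downward.

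Markers of other tissues also differed between dTip60E431Q larvae and the control, where 14.2% of all genes were higher and 14.2% lower. For muscle, 4 of 8 markers fell and the summed intensity was 38128 and 40665 in dTip60E431Q larvae and 64447 and 59975 in dTip60WT larvae, against 61039 and 62383 in the control. For fat body, 2 of 4 fell (Lsp2 and Fbp2, products of late larval life), with sums of 11255 and 9700.2 in dTip60E431Q larvae and 34511 and 33618 in dTip60WT larvae, against 39439 and 33122 in the control. For glia, 1 of 5 rose (loco, at 1.05), and the median of the 5 was 0.41. The others did not pass: moody, Gs2, wrapper and repo, the defining glial gene, differed by 0.52, 0.41, 0.13 and -0.01. The glial sums were 4532 and 4217 in dTip60E431Q larvae and 3442 and 3649 in dTip60WT larvae, against 2972 and 3384 in the control. For neuroblasts, 2 of 5 rose (wor and insc), while dpn and ase differed by 0.07 and -0.06, and mira, at 0.76, did not pass. The neuroblast sums were 274 and 259 in dTip60E431Q larvae and 189.7 and 152 in dTip60WT larvae, against 154 and 183 in the control. For midgut 3 of 7 rose (Mal-A1, Mal-A6 and alphaTry), and Mal-A2, at 1.55, did not pass. Jon65Aiv, Jon99Ci and LysX differed by -0.45, -0.30 and -1.03 and did not pass either. The midgut sums were 19895 and 21788 in dTip60E431Q larvae and 20356 and 21792 in dTip60WT larvae, against 19274 and 21359 in the control. Of the hemocyte and salivary gland markers, 0 of 5 and 0 of 4 passed in either direction. No marker had a value of 0 on any array. The part that tissue makeup or larval stage had in the differences of the synaptic genes was not tested.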

How the data were processed

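Scans were quantified by the authors with GCOS, and dChip supplied normalized model-based expression indexes. The deposited intensity values were taken to be these indexes. Versions, the baseline array and the probe model are not given in the sources used here. The values are linear, from 0.69 to 18115.15, with 1542 values at exactly 1. Log2 was taken of them without a pseudocount, for 18769 probe sets after 183 Affymetrix controls were left out. Scanner files were not used here, so no background call per probe set was available, and the number of arrays limits the precision.

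One mean per genotype was fitted to the 6 arrays in limma 3.58.1 (R 4.3.3, statmod 1.5.0) with eBayes, with 3 residual and 1.43 prior degrees of freedom. A gene was represented by its highest-mean probe set among those with exactly 1 symbol in the platform annotation (13647 probe sets had 1 symbol, 402 several and 4720 none). Arrays of a genotype are separate pools of larvae. No pair of arrays was identical.

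The listed genes, their roles and the related and marker lists were chosen with earlier results of these data known. Values on all arrays are given for genes that passed against the control with a fold of at least 1.5, for the highest- and lowest-mean gene of each role, for Snap25 and Snap24, for Syt7 and for Tip60. In each related list up to 3 genes of smallest p are named. Other genes with printed values were chosen after their values were seen.

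The alternatives were a replicate block, a 2-group fit of the 4 arrays compared, trend and robust options in eBayes, quantile normalization, division of each array by its median, a floor under the lowest 20% of values, a pseudocount of 16, removal of the dimmest 40% of probe sets, omission of single arrays, a fold of at least 2, the methods' t-test, and other probe sets per gene. Omission of 1 array from the group outside a comparison gives the same result as the 2-group fit. The 19 settings are therefore not all distinct. The fit was tested on simulated data. Plots were drawn with matplotlib 3.10.9.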

Additional observations from a re-analysis of the deposited data

How the results depend on the processing

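Each result was recomputed under the alternatives given with the processing. No gene passed in dTip60WT minus control under any of them. The 11 genes that passed in dTip60E431Q minus control had a positive difference, from 0.30 to 1.53, under every alternative that gave a value, and tipE had none without the dimmest 40% of probe sets. Some alternatives, such as the replicate block and the trend and robust options, change the test only and leave the differences as they were. In dTip60E431Q minus dTip60WT the sign of Sh turned with its lowest-mean probe set (-1.42, limma, adjusted p = 0.308), and the other 10 stayed positive.

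For dTip60E431Q minus control, 11 genes were higher. The count was 7 with a fold of at least 2. It was 4 by the methods' t-test without adjustment but with a fold of at least 2 (Snap25, unc-13, Gad1 and Appl). By that rule after Benjamini-Hochberg it was 0. The genes cpx, cac and Rab3 missed only the fold (methods' t-test, unadjusted p = 0.00145, 0.00662 and 0.0105). The count was 8 with 1 dTip60WT array left out, where fewer degrees of freedom remain. Leaving out 1 array of either compared group lowered the number of calls further. The count of lower genes, 0, was 3 with median scaling or a floor (dlg1, eag and Synj) and 1 (dlg1) with trend and robust moderation, quantile normalization, a pseudocount or no dim probe sets. The median of 0.20 was -0.029 with median scaling, 0.079 with quantile normalization, 0.40 without dim probe sets, 0.28 with probe sets averaged, 0.27 with the lowest-mean probe set, and 0.20 to 0.41 with 1 array left out.

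For dTip60E431Q minus dTip60WT, 11 genes were higher. The count was 7 with median scaling. It was 5 by the methods' t-test without adjustment but with a fold of at least 2 (Snap25, cpx, unc-13, Sh and Appl). By that rule after Benjamini-Hochberg it was 0. Rab3 missed only the fold (methods' t-test, unadjusted p = 0.0491). The Syt7 and Sh calls were lost under 13 and 10 of 19 alternative settings. Leaving out 1 array lowered the number of calls here too, with fewer degrees of freedom. The differences of the 11 genes then lay between 0.55 and 2.17. The count of lower genes, 0, was 1 with median scaling, quantile normalization, a floor or no dim probe sets (Shaw) and 1 with a pseudocount (Shab). The median of 0.34 was 0.13 with median scaling, 0.22 with quantile normalization, 0.24 with a pseudocount, 0.47 without dim probe sets, 0.22 with the lowest-mean probe set, and 0.26 to 0.54 with 1 array left out.

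The replicate numbers did not pair the arrays (correlations of deviations from group means from -0.0125 to -0.00735 between genotypes), and the samples share only a number. With the replicate number as a block, 6 genes were higher in dTip60E431Q minus control (Snap25, cpx, Rab3, cac, Gad1 and Appl) and 7 in dTip60E431Q minus dTip60WT.

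With 2 pools per genotype and 1 insertion line per transgene, a difference that did not pass is not shown to be absent. Of the 39 genes, 3 (nSyb, Shab and VGAT) lie below the 20th percentile of mean level, with values down to 1.00 for nSyb, and the 95% interval of each in dTip60E431Q minus control includes 0.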
